A study of Mus musculus with 653 samples.

Results

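The genes described here were 39 coagulation, complement and acute phase genes, all of them plasma proteins or their close regulators made in the adult mainly by the liver. They were taken by name from the gene table of single cells of the mouse embryonic liver, in which all 39 were found: 13 genes of coagulation and fibrinolysis, 18 of complement and 8 of the acute phase. Their reads were read in *Afp*-positive cells, which held more than 10 reads of alpha-fetoprotein, a serum protein of the early hepatoblast, and in all other cells. The question was which of these genes were already on at E10.5 (E stands for embryonic day) and which were absent.

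Each of the 653 libraries was 1 cell, prepared by Smart-seq2, which amplifies whole transcripts without molecular identifiers. Livers came from embryos of *Lgr5*-EGFP-IRES-creERT2 males on a C57BL/6 background, crossed to MF1 females, and GFP in this reporter is driven by the *Lgr5* locus. Cells came from a bulk sort (Liv2+, CD31-, CD45-) or an Lgr5-GFP sort (the same gate and GFP+). The table held 414 cells of E10.5, with 8 more from the Lgr5-GFP than from the bulk sort, and 239 cells of E13.5, 80 of them Lgr5-GFP. The labels call all of these cells hepatoblasts, name no agent, and give neither the animals or litters behind the cells nor the genotype of the embryos that gave the bulk cells. Each stage and sort was therefore counted as 1 sample and no test between them was made. Each share carries its exact 95% interval after Clopper and Pearson. Levels were scaled to 1000000 reads on genes (RPM) and carry an exact Poisson 95% interval. Where a count was 0, the limit given is instead the one that 3 counts would set. All of these cover counting error only, since amplified reads are not independent molecules. Depth ran from 463347 to 2279700 reads per cell (median 1192740), and the libraries lay in 5 sequencing pools on 3 flow cells.

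Blood clotting runs through serine proteases that activate each other in order, from factors XII, XI and IX or from factor VII to factor X and thrombin, and is held in check by protein C and protein S. Plasmin dissolves the clot. Complement starts from antibodies, from mannose-binding lectins or from factor B, converges on C3 and ends in the pore built by C5 to C9. Acute phase proteins are hepatocyte products whose plasma level moves with inflammation, and the hepatocyte lineage is the main source of all these groups.

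At E10.5, 63 of 414 cells were *Afp*-positive (15.2%, 95% interval 11.9 to 19.1%). Of these, 55 were Lgr5-GFP cells (26.1% of that sort, 20.3 to 32.5%) and 8 were bulk cells (3.94%, 1.72 to 7.62%). At E13.5, 2 of 80 Lgr5-GFP cells and 1 bulk cell (0.629%, 0.0159 to 3.45%) were *Afp*-positive. Of the 63 cells, 58 also held more than 10 reads of at least 3 of the other 9 hepatoblast markers, among them 54 of the 55 Lgr5-GFP cells but 4 of the 8 bulk cells. Summed without *Afp*, which defined the cells, these 9 markers had a median of 16303 RPM in the 63 cells (0 to 33972) and 2.30 RPM in the other 351 cells of E10.5 (0 to 26365). Mesenchyme markers were at a median of 11.1 RPM (0 to 4900) and 1295 RPM (0 to 88801) respectively. A list was said to be carried by a cell with more than 10 reads of at least 3 of its genes. Of the 63 cells, 6 carried the mesenchyme list, and none carried the lists of mesothelium, endothelium, erythroid cells, megakaryocytes or leukocytes. Among the other 351 cells, 57.55% carried the mesenchyme list and 39 cells the erythroid list, so that the hepatoblast label did not match the markers of most cells outside the *Afp*-positive set.

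A gene was called on in a cell with more than 10 reads, and on in the *Afp*-positive cells where at least 50% of them passed. Among the 39 genes, 4 were on in this sense: *Itih2* in 58 of 63 cells, *Vtn* in 48, *F2* in 33 and *C3* in 32. Of all 26781 genes with a read at E10.5, 8.08% passed the same limit. A further 13 genes were on in 10% to 50% of the cells and are called partly on, so that 17 of 39 passed 10%, against 29.8% of all genes. The remaining genes were rare in 19 cases and listed at 0 in 3. The genes next to the 50% limit were *C3* inside it (50.8%, 37.9 to 63.6%) and *F10* outside it (46.03%, 33.4 to 59.1%), and these intervals overlap. The 4 genes on belonged to all 3 groups, with 1 coagulation, 2 complement and 1 acute phase gene. Partly on genes were most numerous in coagulation, with 7 of 13 genes, against 3 of 18 in complement and 3 of 8 in the acute phase.

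**Figure D1:**
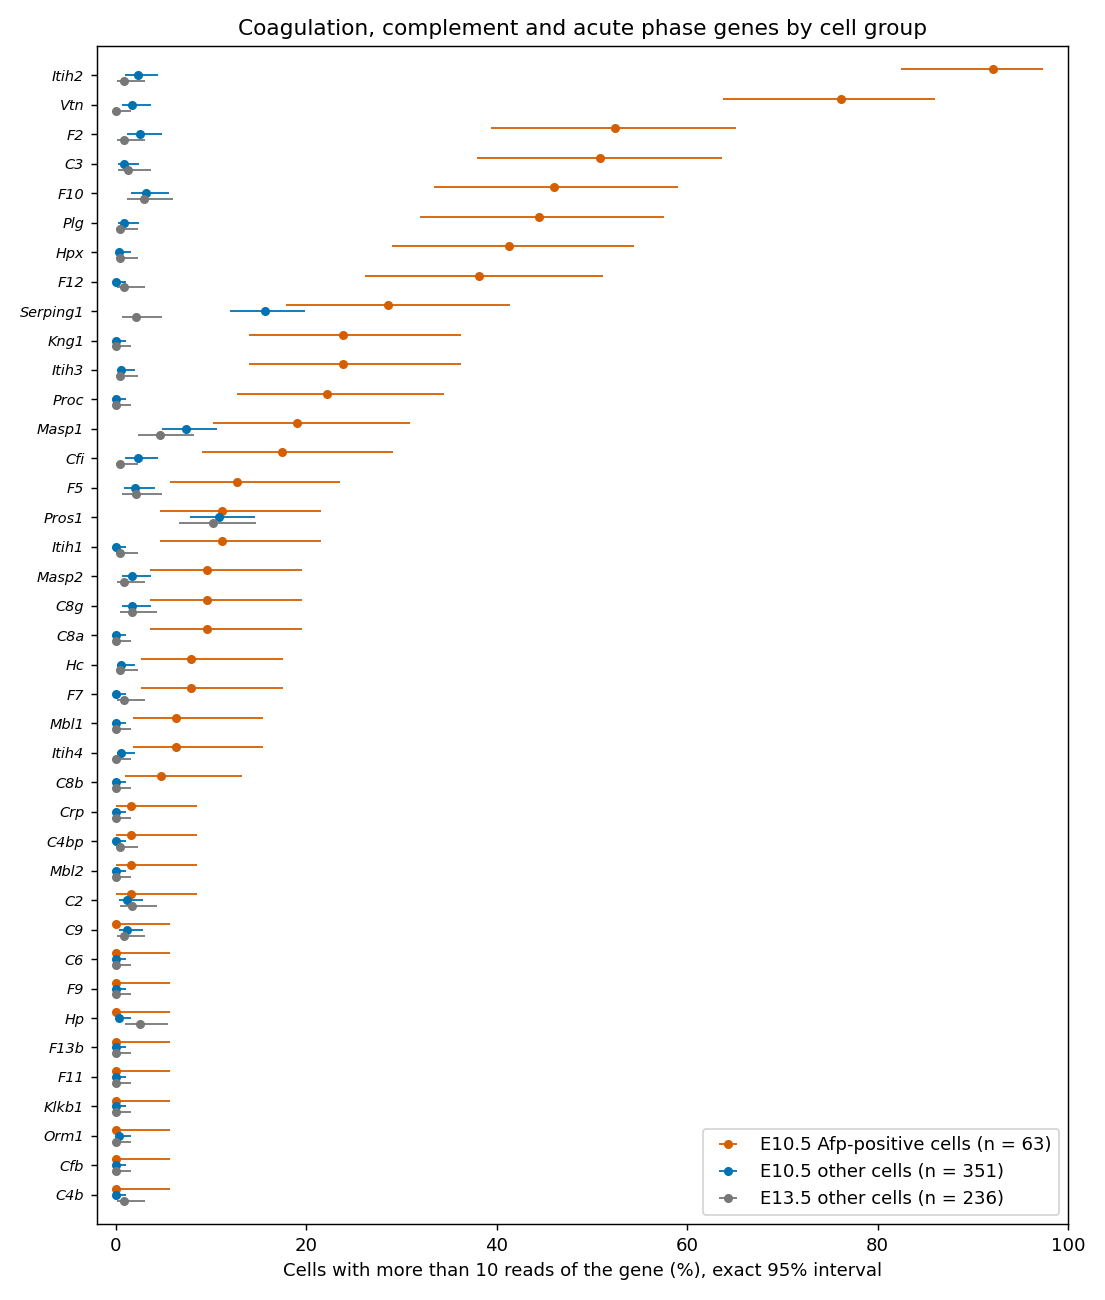
Percent of cells with more than 10 reads of each of the 39 genes, in E10.5 *Afp*-positive cells (63), other E10.5 cells (351) and other E13.5 cells (236), with points for the share and bars for its exact 95% interval. *Itih2* and *Vtn* reach 92.1% and 76.2% of the *Afp*-positive cells, while in the other cells no gene passes 15.7%.

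The 4 genes on early encode proteins of separate function. *Itih2* codes for a heavy chain of the inter-alpha-trypsin inhibitors, which bind hyaluronan. *Vtn* codes for vitronectin, an adhesive plasma protein that also blocks the terminal complement complex. *F2* codes for prothrombin and *C3* for the protein on which all complement routes meet. To show what lies before these genes, the 250 bases upstream of the RefSeq start (GRCm38.p6) are printed for the 4 genes and for *F9* and *F11*, clotting factors that no E10.5 cell held above 10 reads. Capitals mark matches to 6 short motifs searched on both strands. These were GTTAAT for HNF1, CAAAGTCC for HNF4, TTGCNNAA for C/EBP, TGTTTNC for forkhead factors, TTCNNNGAA for STAT and TATAAA for the TATA box. The windows are chr2:10130684-10130933 (minus strand) for *Itih2*, chr11:78498870-78499119 (plus) for *Vtn*, chr2:91636458-91636707 (minus) for *F2*, chr17:57228137-57228386 (minus) for *C3*, chrX:59999214-59999463 (plus) for *F9* and chr8:45262032-45262281 (minus) for *F11*.
Itih2: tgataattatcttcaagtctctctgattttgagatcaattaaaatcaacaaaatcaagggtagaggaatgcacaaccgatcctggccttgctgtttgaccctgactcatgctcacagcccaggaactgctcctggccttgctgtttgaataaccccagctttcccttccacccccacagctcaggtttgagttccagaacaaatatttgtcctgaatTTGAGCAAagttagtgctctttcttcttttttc
Vtn: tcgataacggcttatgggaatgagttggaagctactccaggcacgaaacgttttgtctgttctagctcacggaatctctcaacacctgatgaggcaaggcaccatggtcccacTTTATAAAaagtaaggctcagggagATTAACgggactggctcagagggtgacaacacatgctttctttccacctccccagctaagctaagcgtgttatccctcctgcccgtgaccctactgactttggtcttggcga
F2: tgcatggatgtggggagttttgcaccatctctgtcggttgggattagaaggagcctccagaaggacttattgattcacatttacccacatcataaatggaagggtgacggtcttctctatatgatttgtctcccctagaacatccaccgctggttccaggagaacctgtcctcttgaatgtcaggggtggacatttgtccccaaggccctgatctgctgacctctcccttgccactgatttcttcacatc
C3: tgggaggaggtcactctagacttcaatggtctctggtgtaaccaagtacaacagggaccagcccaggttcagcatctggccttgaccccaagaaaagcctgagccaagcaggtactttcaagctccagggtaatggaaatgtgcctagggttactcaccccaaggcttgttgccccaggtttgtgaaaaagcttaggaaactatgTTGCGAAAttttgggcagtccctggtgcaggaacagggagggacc
F9: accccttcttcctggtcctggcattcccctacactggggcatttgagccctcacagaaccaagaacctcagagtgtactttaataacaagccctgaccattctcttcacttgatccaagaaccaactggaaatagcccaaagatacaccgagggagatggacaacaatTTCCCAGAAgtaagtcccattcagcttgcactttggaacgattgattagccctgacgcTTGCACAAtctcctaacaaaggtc
F11: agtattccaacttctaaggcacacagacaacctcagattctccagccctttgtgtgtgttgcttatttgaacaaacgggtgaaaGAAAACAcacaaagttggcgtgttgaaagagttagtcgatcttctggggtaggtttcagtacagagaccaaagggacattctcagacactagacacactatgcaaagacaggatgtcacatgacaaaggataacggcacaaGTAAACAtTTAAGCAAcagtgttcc

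*Itih2* and *C3* each held the C/EBP letters, beginning 33 and 45 bases before the RefSeq start. In the GENCODE annotation *Itih2* reaches up to position 10131396, so that its window lies inside the annotated gene. The *Vtn* window runs past the GENCODE start at 78499091. *Vtn* held the HNF1 letters and, further upstream, overlapping TATA matches, and *F2* held none of the 6 motifs in this window. The silent *F9* and *F11* held the C/EBP letters too, at 24 and 17 bases, beside STAT letters at 82 bases in *F9* and forkhead letters at 25 bases and further upstream in *F11*. Of the 39 genes, 28 had an entry in the promoter table. The C/EBP letters stood in 25% of these 28 and in 9.56% of all 32851 promoters, the HNF1 letters in 25% and 6.43%, forkhead in 25% and 17.8%, STAT in 17.9% and 7.02%, TATA in 14.3% and 12.4%, and HNF4 in 0% and 1.20%. These matches describe the letters and did not separate the genes that were on from *F9* and *F11*.

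*Itih2* was the most abundant of the 39 genes. Its level per cell ran from 0 to 5624 RPM with a median of 1389 in the 63 *Afp*-positive cells, and was at a median of 0 (0 to 4422) in the other E10.5 cells. Summed over cells it stood at 1531 RPM (1523 to 1540) and 19.6 RPM (19.2 to 20), a difference of 6.29 on the log2 scale. It was 3.84 in pool 2 of the sequencing pools alone and 9.22 without it. Of the 63 *Afp*-positive cells, 58 held more than 10 reads, 3 held 1 to 4 and 2 held none, and the ranges of both sets of cells overlapped.

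*Vtn* ran from 0 to 3970 RPM per cell with a median of 469, and was at a median of 0 (0 to 3285) elsewhere at E10.5. Its summed level was 608 RPM (602 to 613) in the *Afp*-positive cells and 10.51 RPM (10.21 to 10.82) in the others, 5.85 apart on the log2 scale, but 3.46 in pool 2 alone and 7.41 without it. A pair of cells accounted for most of these reads outside the *Afp*-positive set. They were Lgr5-GFP cells of E10.5 with 4 and 2 *Afp* reads and with 5 and 4 of the other hepatoblast markers, and both lay in pool 2. They held 88.8% of the *Itih2*, 85.8% of the *Itih3*, 63.3% of the *Vtn* and 57.2% of the *F2* reads of all other E10.5 cells.

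*F2* and *C3* were on in about every other cell and varied more. *F2* ran from 0 to 1228 RPM with a median of 33.8, and summed to 149.7 RPM (147.03 to 152.43) in the *Afp*-positive cells and 4.53 RPM (4.33 to 4.73) in the others, where its highest cell had 926. *C3* ran from 0 to 1886 RPM with a median of 20.8, and summed to 239.7 RPM (236.3 to 243.1) against 1.24 RPM (1.14 to 1.35), where its highest cell had 145.6. On the log2 scale these were differences of 5.05 and 7.59. For *F2* the difference was 1.75 in pool 2 alone, under 4 times, 7.87 without pool 2 and 4.41 without pool 3. For *C3* it was 6.62 without pool 2 and 8.46 without pool 5. *C3* had at least 1 read in 51 cells, so that 19 cells held it at 10 reads or fewer.

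Levels were compared between genes per kilobase of exon, taken over all annotated transcripts of a gene together. On this scale *Itih2* was at 462 RPM per kb and *Vtn* at 299 in the *Afp*-positive cells. The partly on genes *Hpx* (87.5) and *F10* (52.9) came next, ahead of *C3* (46.6), *F12* (40.5) and *F2* (32.6). In the summed levels *C3* and *F2* instead stood ahead of *F10* and *Hpx*. The annotated exons of *F10* and *Hpx* are shorter (2731 and 1499 bp against 5143 bp for *C3* and 4594 bp for *F2*). Which transcripts these cells used was not known, so that the order below *Vtn* is not settled.

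Among the partly on coagulation genes, *F10*, the factor that cleaves prothrombin, was on in 29 cells, *Plg*, which codes for plasminogen, in 28 and *F12*, the starter of the contact pathway, in 24. *F10* ran from 0 to 2182 RPM with a median of 2.04, *Plg* from 0 to 965 with a median of 0.768 and *F12* from 0 to 691 with a median of 0.709. *F2* and *Plg* were both on in 24 cells and *F2* and *F10* in 23. *Kng1*, the kininogen that carries prekallikrein and factor XI, was on in 15 cells and shared 11 of them with *F12*. *Proc*, which codes for protein C, was on in 14 cells, its cofactor *Pros1* (protein S) in 7, and 3 cells held both. *F5*, the cofactor of factor X, was on in 8 cells. *F12*, *Kng1* and *Proc* were on in none of the 351 other E10.5 cells (0 of 351, which allows a share of up to 0.855%), and their summed levels were 9.94, 10.94 and 9.48 higher on the log2 scale in the *Afp*-positive cells. *F5* stood at 4.99 RPM in the *Afp*-positive and 3.90 RPM in the other cells and *Pros1* at 19.4 and 16.2 RPM. Both went either way by pool, with log2 ratios from -0.999 to 4.69 for *F5* and from -0.74 (pool 4) to 2.35 (pool 2) for *Pros1*, whose ratio was -0.01 without pool 1 and also without pool 5.

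The remaining 5 coagulation genes were rare. *F7*, whose product starts clotting with tissue factor, was on in 5 cells, with 641 reads in the *Afp*-positive and 1 read in the other E10.5 cells. It lies 1.498 kb from *F10* on chromosome 8, and 4 of its 5 cells also had *F10* on. *F9*, *F11*, *F13b* (the carrier subunit of factor XIII) and *Klkb1* (plasma prekallikrein) were on in none of the 414 cells of E10.5, which allows a share of up to 0.725%. In the 63 *Afp*-positive cells they had 3, 2, 2 and 1 reads in all. The contact and intrinsic routes were therefore read in part, with *F12* and *Kng1* on in some cells while *F11*, *F9* and *Klkb1* were not detectable above 10 reads. Of the exon bases of *Klkb1*, 43.2% overlap another annotated gene on the same strand, *Gm45753*, and reads there may not have been counted for either.

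In complement, partly on genes were all regulators or proteases. *Serping1*, which codes for the C1 inhibitor that also blocks factor XII and kallikrein, was on in 18 cells, *Masp1*, a protease of the lectin route, in 12 and *Cfi*, the protease that cleaves C3b and C4b, in 11. *Serping1* stood at 58.99 RPM in the *Afp*-positive and 33.1 RPM in the other E10.5 cells and *Masp1* at 40.97 and 14.99 RPM, both within 4 times in the sum over pools. In pool 2 alone, however, they were 7.11 and 3.56 higher on the log2 scale, and *Masp1* was at -0.82 in pool 3. *Cfi* stood at 17.2 and 2.17 RPM, with log2 ratios from 0.045 to 5.175 by pool. The pair of pool 2 cells with few *Afp* reads described above held 34.1% of its reads in the other E10.5 cells.

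The lectins and the terminal proteins were rare. *Masp2*, *C8a* and *C8g* were on in 6 cells each, *Hc* (complement C5) in 5, *Mbl1* in 4 and *C8b* in 3, while *Mbl2*, *C2* and *C4bp* were on in 1 cell each. Of the 3 chains of C8, *C8a* and *C8b* shared 1 cell, *C8a* and *C8g* 1 and *C8b* and *C8g* none. With 3 to 6 cells for each gene, these counts cannot tell whether the chains go together. The log2 ratio of *C8g* between *Afp*-positive and other E10.5 cells ran from -0.84 to 9.11 by pool. *C6* and *C9* were on in no *Afp*-positive cell (0 of 63, which allows up to 4.76%), with 5 and 9 reads. *C4b* and *Cfb* were listed at 0 there, which allows up to 0.0379 RPM. The authors counted only uniquely aligned reads, so that reads matching more than 1 gene were left out. Whether this lowered *C4b* was not tested. Of the exon bases of *Cfb*, 79.5% overlap *Gm20547* on the same strand, also listed at 0 reads in all cells, so that its absence cannot be told apart from reads left uncounted. The same gene covers part of *C2* (46.9% of exon bases overlapped), and *Masp2* overlaps *Tardbp* on the opposite strand over 54.9% of its exon bases, from which reads cannot be told apart without strand.

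The acute phase group held both the most widespread gene and genes that were off. *Hpx*, which codes for the haem scavenger hemopexin, was on in 26 cells and ran from 0 to 1208 RPM with a median of 0. Its summed level was 131.1 RPM (128.6 to 133.7) against 0.125 RPM (0.0935 to 0.162), a difference of 10.04 on the log2 scale (10.66 without pool 2, 11.20 without pool 3). *Itih3* was on in 15 cells, *Itih1* in 7 and *Itih4* in 4. These 3 genes lie side by side on chromosome 14 with gaps of 5.42 and 6.22 kb. *Itih1* and *Itih3* were both on in 4 of the 18 cells that held either, *Itih3* and *Itih4* in 2 of 17 and *Itih1* and *Itih4* in 0 of 11. Whether they shared more or fewer cells than their frequencies give was not tested. *Crp*, the pentraxin C-reactive protein, was on in 1 cell. *Hp*, which codes for the haemoglobin scavenger haptoglobin, had 3 reads in the 63 cells and was on in none of them. *Orm1* (alpha-1-acid glycoprotein) was listed at 0, and whether reads matching more than 1 gene were lost from it was not tested.

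The plot of levels per cell shows how the 9 most frequent genes, those on in at least 25% of *Afp*-positive cells, differed from cell to cell.

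**Figure D2:**
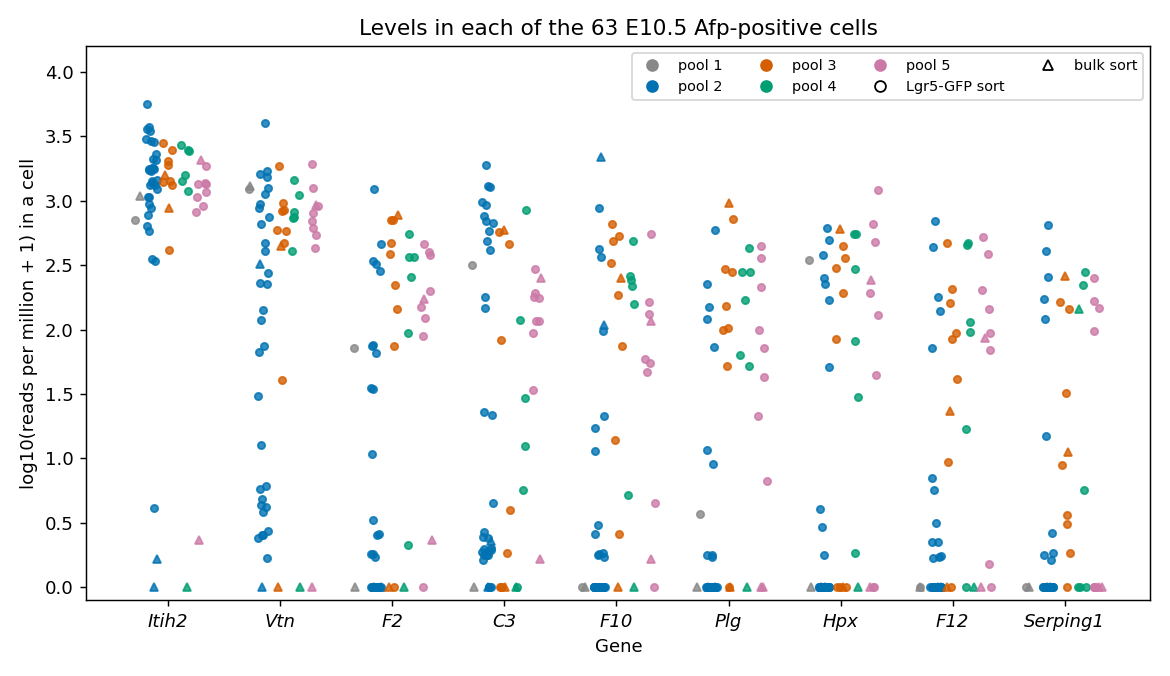
Level of the 9 genes on in at least 25% of E10.5 *Afp*-positive cells, as log10(RPM + 1), with 1 point per cell, coloured by sequencing pool, circles for Lgr5-GFP and triangles for bulk cells. *Itih2* is above 10 reads in 58 of 63 cells, whereas *Vtn* (48 cells) and the other 7 genes are split between cells at or near 0 and cells that hold them.

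Over the whole list, 24 of 39 genes were at least 4 times higher in *Afp*-positive than in other E10.5 cells, where 7.77% of 23418 genes were. This held for 7 of 13 coagulation, 11 of 18 complement and 6 of 8 acute phase genes. Some of the 24 rested on few cells. *Crp*, *C4bp* and *Mbl2* were on in 1 cell each, which held 99.55%, 99.31% and 100% of their reads in the *Afp*-positive cells. The highest cell held 73.1% of the reads for *Mbl1* and 62.75% for *C8b*, but 5.52% for *Itih2* and 9.12% for *Vtn*. For 7 genes (*F5*, *Pros1*, *Klkb1*, *C2*, *C6*, *Masp1* and *Serping1*) both levels were within 4 times, and for 5 (*F9*, *F11*, *F13b*, *C4b* and *Cfb*) no ratio was formed, as both sets of cells held 3 reads or fewer. *C9*, *Hp* and *Orm1* were at least 4 times lower, but few reads or cells lay behind this: *C9* had 339 reads in 22 of the other cells, *Hp* 395 reads in 10 and *Orm1* 66 reads in 2. The share of all genes at least 4 times lower was not counted. The median log2 ratio of the 34 genes with one was 5.45, and that of all 23418 genes was -0.38. Of the 39 genes, 11 were on in at least 1 *Afp*-positive cell and in no other cell of E10.5, as were 1.53% of all genes.

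Single *Afp*-positive cells held between 0 and 15 of the 39 genes on, with a median of 6. At least 1 gene was on in 62 of 63 cells (98.4%), in 38.2% of 351 other E10.5 cells (33.1 to 43.5%) and in 60 of 236 other E13.5 cells (25.4%, 20 to 31.5%). At least 5 genes were on in 41 *Afp*-positive cells, 1 other cell of E10.5 and no other cell of E13.5. By *Afp*, the 22 cells with 11 to 1000 *Afp* reads held 0 to 12 (median 3) and the 41 cells with more held 2 to 15 (median 8). As a description over 63 cells that share libraries and depth, the number of genes on had a Pearson's r of 0.62 with log10 *Afp* reads, 0.74 with the number of genes detected and -0.26 with log10 total reads. Within pool 2 the first 2 values were 0.39 and 0.57 (34 cells), and within pools 3 to 5 they were 0.71 and 0.28 (27 cells), so that their order was reversed there.

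**Figure D3:**
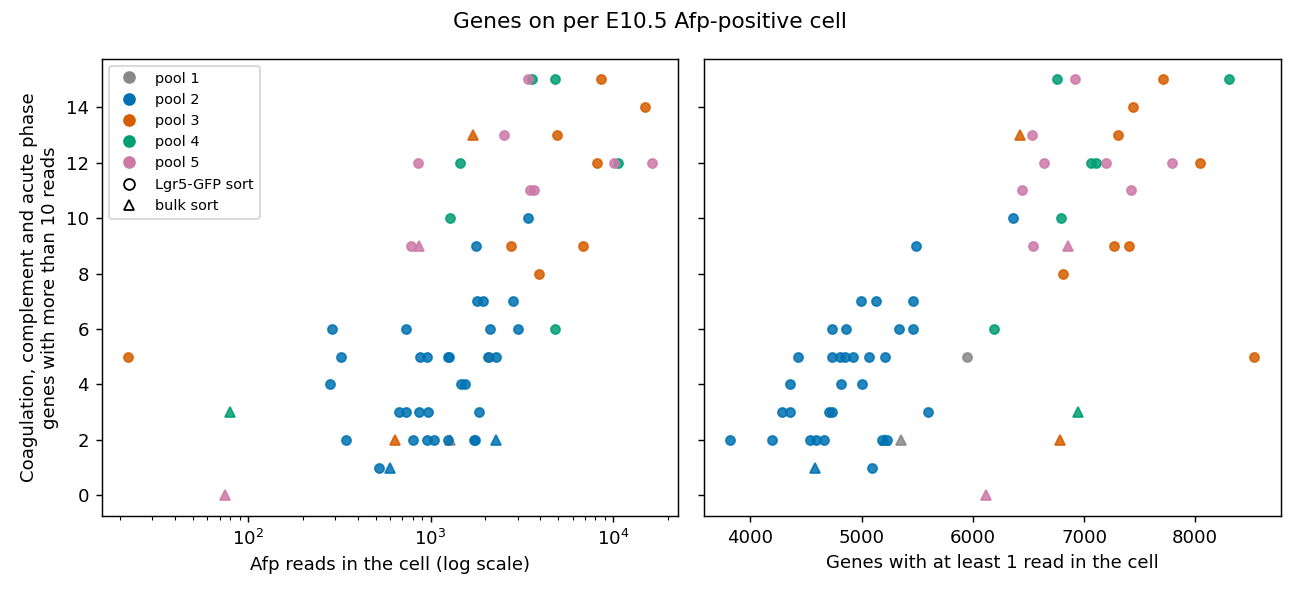
Number of the 39 genes on in each E10.5 *Afp*-positive cell, against its *Afp* reads (log axis) and against its number of genes detected, coloured by pool. Cells of pool 2 hold 1 to 10 genes and lie at fewer detected genes, whereas cells of pools 3, 4 and 5 hold up to 15.

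The sequencing pools stood apart in this count. Pool 2 gave 34 of the 63 cells, among them 32 of its 47 Lgr5-GFP cells (68.1%, 52.9 to 80.9%), where pools 3, 4 and 5 gave 10, 7 and 10 and pool 1 gave 2. Its *Afp*-positive cells held a median of 4853 detected genes, against 7355, 6942 and 6749 in pools 3, 4 and 5, and a median of 4 of the 39 genes on (1 to 10), against 12 (0 to 15) in the 27 cells of pools 3 to 5. Other E10.5 cells differed likewise, with a median of 4505 detected genes in pool 2 and 6334 to 6953 in pools 3 to 5. *Afp* itself was at 1065 RPM in pool 2 and at 4251, 2988 and 3613 RPM in pools 3, 4 and 5. Whether this came from the libraries or from the cells was not tested.

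Within pools the 4 genes on therefore became a different number. Taken alone, pool 2 had 2 genes on in at least 50% of its cells (*Itih2* and *Vtn*), and pools 3, 4 and 5 had 9, 8 and 8, of which 7 were shared: *Itih2*, *Vtn*, *F2*, *F10*, *F12*, *Plg* and *Hpx*. The share of all genes on moved too, at 4.48% in pool 2 and 19.2%, 17.1% and 16.4% in pools 3, 4 and 5. Without pool 2, 8 of the 39 genes were on (15.5% of all genes), and without pool 5, 2 were (7.02%). *Plg* was on in 6 of 34 cells of pool 2 and in 8 of 10, 6 of 7 and 8 of 10 cells of pools 3, 4 and 5, and *F12* in 5 of 34, 7 of 10, 5 of 7 and 7 of 10. *F2* followed the same order with 11, 8, 5 and 8 cells. *C3* did not, being on in 15 of 34, 4 of 10, 3 of 7 and 9 of 10 cells, and its summed level was highest in pool 2 (322 RPM against 165.3, 115.2 and 128.1). *Itih2* was on in 31 of 34, 10 of 10, 6 of 7 and 9 of 10 cells. *Itih2* and *Vtn* were thus on in at least 50% of cells in each of pools 2 to 5.

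**Figure D4:**
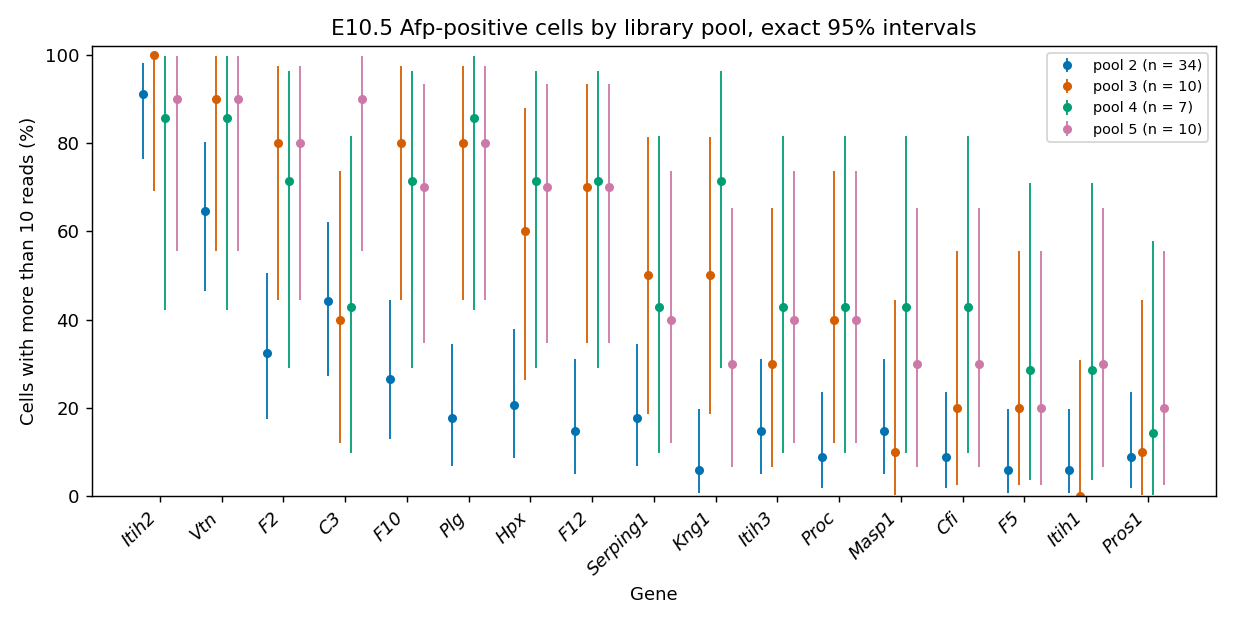
Percent of E10.5 *Afp*-positive cells with more than 10 reads of each of the 17 genes on or partly on, separately for pools 2 (34 cells), 3 (10), 4 (7) and 5 (10). *Plg*, *F12*, *F10* and *Hpx* are lower in pool 2 than in the other 3 pools, while *Itih2* is high in all 4.

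Pairs of the 9 frequent genes had a median r of 0.28 over the 36 pairs and 63 cells. It was 0.05 over the 34 cells of pool 2 and 0.49 over the 27 cells of pools 3 to 5, and these values are descriptions. The highest pair over all cells was *F2* with *Plg* (r = 0.64), 2 genes whose shares differed between pools. Within pool 2 it was *F12* with *Hpx* (0.43), and within pools 3 to 5 *Vtn* with *Itih2* (0.81).

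Both sorts contributed *Afp*-positive cells at E10.5, but the 8 bulk cells are too few for shares. *Itih2* was on in 54 of 55 Lgr5-GFP and 4 of 8 bulk cells, *Vtn* in 44 and 4, *F2* in 31 and 2, and *C3* in 30 and 2. The 8 bulk cells held 75 to 2271 *Afp* reads and 0, 3, 1, 2, 9, 2, 13 and 2 genes on, in ascending order of *Afp*. Those with 75 and 80 *Afp* reads carried the mesenchyme list and none of the other hepatoblast markers. The first had none of the 39 genes on and the second had *F5*, *Masp1* and *Serping1*. The cells with 9 and 13 genes on held 8 and 9 of the other hepatoblast markers. *F10* was at 307 RPM in bulk and 116.3 RPM in Lgr5-GFP cells, and 1 bulk cell with 3024 reads held 83.9% of its reads in the bulk cells.

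At E13.5 the 3 *Afp*-positive cells each carried the list of another cell type, and 2 of them also carried the hepatoblast list, with 4 and 3 of its markers besides *Afp*. The bulk cell (168.2 RPM of *Afp*, erythroid list) had *F12* at 61.7 RPM, *Plg* at 22.8, *Kng1* at 140.3, *C8g* at 18.6 and *Masp2* at 39.7. An Lgr5-GFP cell with 882 RPM of *Afp* (leukocyte list) had *Plg* at 79.9 RPM, *Kng1* at 305 and *Vtn* and *Itih3* at 184.8 each, but 2 reads of *Itih2* and none of *F2* or *C3*. The other Lgr5-GFP cell (232 RPM of *Afp*, mesenchyme list) had no read of any of the 39 genes. With 3 cells, the E10.5 and E13.5 *Afp*-positive cells could not be compared, and absence at E10.5 could not be set against presence later.

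Outside the *Afp*-positive cells the same genes were read in other cell types. At E10.5, 3 of the 39 genes were on in at least 5% of these cells, where 39.4% of all genes were: *Serping1* in 55 of 351 cells (15.7%, 12.03 to 19.9%), *Pros1* in 38 (10.8%, 7.78 to 14.6%) and *Masp1* in 26 (7.41%, 4.90 to 10.7%). At E13.5 it was 1 gene, *Pros1*, in 24 of 236 cells (10.2%), with a background of 37.3%. By sort, *Serping1* was on in 22 Lgr5-GFP (14.1%) and 33 bulk cells (16.9%) of E10.5 and *Masp1* in 17 (10.9%) and 9 (4.62%). At E13.5, *Pros1* was on in 18 of 78 Lgr5-GFP cells and 6 bulk cells (3.80%), *Masp1* in 11 cells, 10 of them Lgr5-GFP, and *Serping1* in 5 cells, all Lgr5-GFP.

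*Serping1* and *Masp1* were found with mesenchyme and mesothelium markers. *Serping1* was on in 16 of 21 cells of E10.5 that carried the mesothelium list (76.2%, 52.8 to 91.8%) and in 46 with the mesenchyme list (22.8%, 17.2 to 29.2%), and in 0 cells with the endothelium, erythroid, megakaryocyte or leukocyte lists. All 5 cells that held it at E13.5 carried the mesenchyme list. *Masp1* was on in 7 of 21 cells with the mesothelium list and in 20 with the mesenchyme list at E10.5 (9.90%), and in 6 of 20 with the mesenchyme list at E13.5. Lists can be carried together, as in 42 of the 351 and 13 of the 236 cells.

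*Pros1*, *F5* and *F10* were found with blood and endothelium markers, in cells that the gate against CD31 and CD45 was set to remove. *Pros1* was on in 13 of 16 cells of E10.5 with the megakaryocyte list, 10 of 12 with the leukocyte list and 9 of 15 with the endothelium list, and in 14 of 23 with the endothelium list at E13.5. It was not limited to these, as 15 of its 38 cells at E10.5 carried the mesenchyme list. All 12 cells with *F5* on, over both stages, carried the megakaryocyte list (7 of 16 and 5 of 7). *F10* was on in 11 other cells of E10.5, 10 of which carried that list, 10 the erythroid and 7 the leukocyte list. At E13.5 it was on in 7 cells, of which 3, 5 and 4 carried these lists. *Hp* was on in 6 of 28 cells with the leukocyte list at E13.5, all bulk, and its highest cell held 2967 reads, whereas no *Afp*-positive cell of E10.5 had it on. *C4b*, with 1 read at E10.5, had 324 reads at E13.5, 288 of them in 1 cell.

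**Figure D5:**
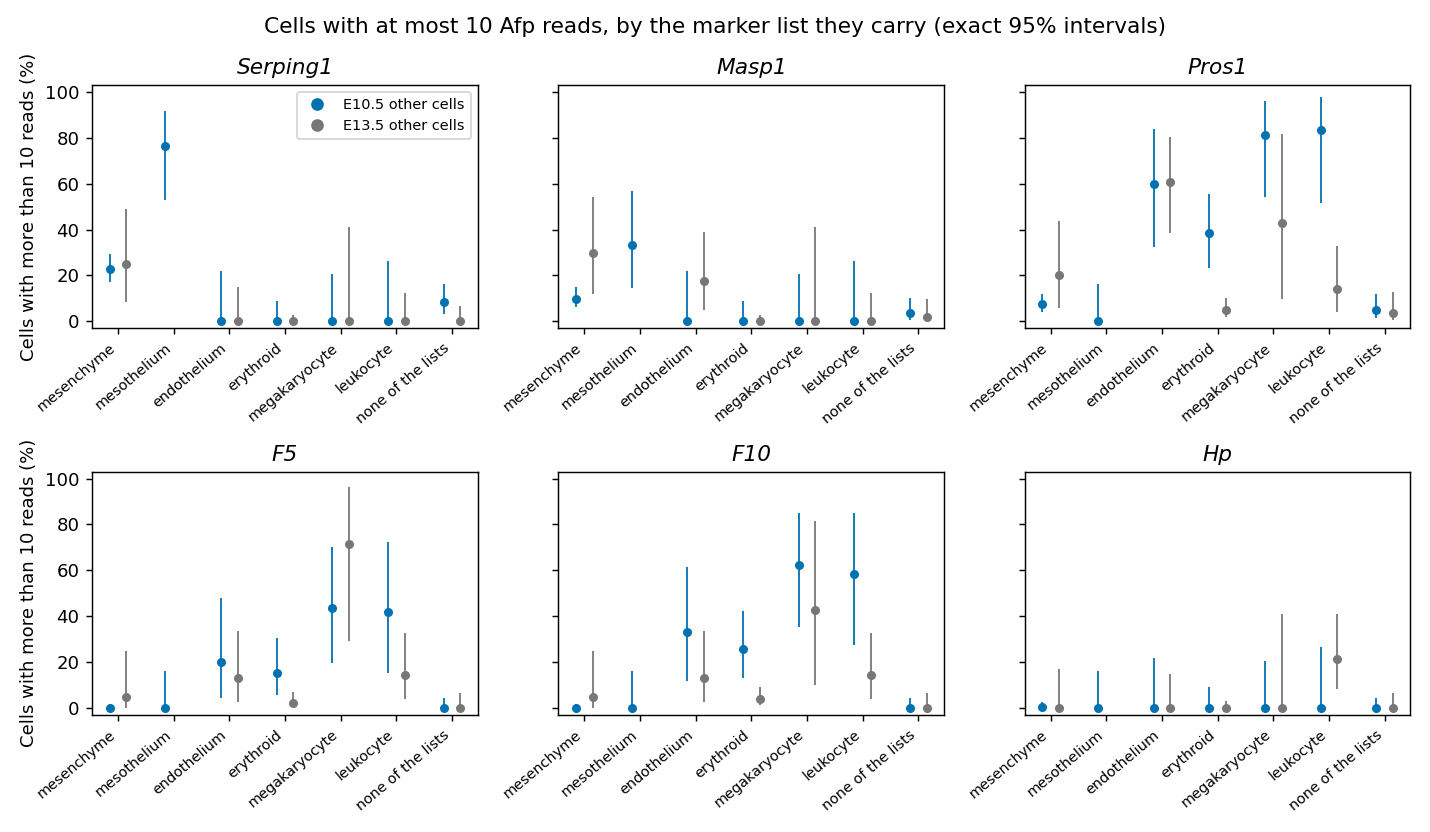
Percent of cells with at most 10 *Afp* reads that had *Serping1*, *Masp1*, *Pros1*, *F5*, *F10* or *Hp* on, by the marker list they carried, at E10.5 and E13.5. *Serping1* and *Masp1* are seen with the mesothelium and mesenchyme lists, *F5* with the megakaryocyte list and *Hp* with the leukocyte list at E13.5.

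Reads of *Itih2* and *Afp* in other cells moved with shared library indexes. In pools 3, 4 and 5, 21 of 56, 8 of 44 and 10 of 52 other E10.5 cells that shared an index with an *Afp*-positive cell of their pool had an *Itih2* read, against 0 of 15, 0 of 32 and 0 of 13 that shared none. For *Afp* reads the counts were 35, 20 and 22 against 0, 1 and 0. In pool 1 an *Itih2* read was held by 6 of 38 against 1 of 47 cells, and in pool 2 all 54 other cells shared an index. The median summed level of all 39 genes was 8.96 against 81.6 RPM in pool 3. The gap was small in pool 4 (63.2 against 67.7), pool 5 (6.73 against 7.56) and pool 1 (0.966 against 1.3). This sum includes genes that other cells had on themselves, such as *Serping1* (33.1 RPM over all other E10.5 cells). It is therefore not a measure of shared indexes. Cells with and without a shared index also differed in sort, with Lgr5-GFP cells making up 29 of 56 against 3 of 15 in pool 3. The part of shared indexes in the low reads of other cells was not tested, and a cell needed more than 10 reads to be counted as on.

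Of 61 further genes of the same pathways, all found in the table, 5 were on in at least 50% of *Afp*-positive cells, a share near the 8.08% of all genes, and 8 were partly on, so that 13 passed 10% where 29.8% of all genes did. A further 39 were rare and 9 had no read there. *Ambp*, whose product gives the bikunin chain that the heavy chain of *Itih2* is joined to, was on in 61 of 63 cells at 3333 RPM against 6.62 RPM in other E10.5 cells. *Serpinf2*, the inhibitor of plasmin, was on in 50 cells, *Habp2*, a hyaluronan-binding protease, in 37 and *Serpinc1*, the antithrombin that blocks thrombin and factor X, in 36. *Vkorc1*, which recycles the vitamin K needed by factors II, VII, IX and X, was on in 32, but also in 31.1% of other E10.5 cells. *Cpb2*, a carboxypeptidase that slows fibrinolysis, was on in 30. Of the 55 of these genes with a ratio, 19 were at least 4 times higher in the *Afp*-positive cells, where 7.77% of all 23418 genes were. Among the 19 was *Orm3*, which had no read in the *Afp*-positive cells and passed only through the floor of 3 reads. The 7.77% was counted by the same rule. A further 17 were at least 4 times lower, for which the share of all genes was not counted. The median log2 ratio of the 55 genes was 0.11.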

How the data were processed

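Single cells were sorted from E10.5 and E13.5 mouse livers, prepared by Smart-seq2 and sequenced as 50 bp single-end reads. The deposited values used here are counts of reads per gene and cell. Per the labels and the methods, the authors aligned to GRCm38.p6 with STAR 2.6.0c and counted with featureCounts. Subread 1.6.2 and Scanpy 1.3.3 also stand in the submitters' processing notes. Cells had passed filters on mitochondrial reads, spike-in reads, total reads and the number of genes. The limit on the number of genes was set separately for each sorting experiment. A normalised table of the same cells was not used. Of 54195 genes, 54042 were matched to a symbol by their identifier. Exon lengths and positions came from GENCODE M21, whereas the authors' counting used an Ensembl annotation, and promoters from RefSeq.

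The genes, marker lists and limits were chosen with earlier results of these data known. A gene was on in a cell with more than 10 reads. It was on in *Afp*-positive cells from 50% of cells, partly on from 10%, and rare below this if it held a read. Levels were reads summed over cells and scaled to 1000000 reads on genes, and ratios of such levels needed more than 3 reads in 1 set of cells. Where 1 set held 0 reads, 3 reads were used as its floor. Bases shared by annotated genes were counted from the annotation. All 39 genes were accounted for, and values are given for those on in *Afp*-positive cells, those on in at least 5% of other cells and those listed at 0. Other pathway genes were named by the highest share of *Afp*-positive cells. Partly on and rare genes were added for their role after their values were seen. As each stage and sort was 1 sample, no p-value was computed. The scripts were tested on simulated data and used Python 3.11.15, numpy 2.4.6, pandas 2.3.3, scipy 1.17.1 and matplotlib 3.10.9, with TMM factors from edgeR 4.0.16 in R 4.3.3.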

Additional observations from a re-analysis of the deposited data

How the results depend on the processing

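No paired analysis was possible because replicate numbers only name cells, each stage and sort is 1 sample, and no result comes from a test. Differences between sorts and stages in *Afp*-positive cells were not recounted, since 8 bulk cells and 3 cells of E13.5 are under 10.

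The share of *Afp*-positive cells at E10.5, 15.2%, became 44.69% from 1 *Afp* read and 14.5% both above 100 reads and by at least 3 other hepatoblast markers. Without 1 pool it lay between 8.90% (without pool 2) and 18.7%. The 4 genes on became 0 from 1 *Afp* read, 4 above 100 reads and 4 by the other markers. They became 7 where 1 read counted as on, 2 after thinning each cell to 100000 reads, 9 at a limit of 25% of cells, 2 at 75%, and 2 to 8 without 1 pool (8 without pool 2, 2 without pool 5). In pools 2, 3, 4 and 5 alone they were 2, 9, 8 and 8. The share of all genes on was recounted only for single pools and without pool 2 or 5. The other numbers of genes on stand without a reference. The 7 genes on in no E10.5 cell became 1 where 1 read counted and 4 where 3 reads counted, and 7 to 11 without 1 pool (11 without pool 3). The share of all genes on in no E10.5 cell was not counted, so that these 7 stand without a reference. The 24 genes at least 4 times higher remained between 20 and 25 in number under every setting run, including TMM scaling (24), which moved all ratios by 0.23 on the log2 scale. Of the log2 ratios of 11 single genes recomputed under these settings, 70.2% moved beyond counting error and 59 did not, and none of those at least 4 times apart changed sign. The genes on in at least 5% of other cells, 3 at E10.5 and 1 at E13.5, became 13 and 13 where 1 read counted, and 0 and 0 at a limit of 20% of cells. At E13.5 there were 3 where 3 reads counted, 2 after thinning, and 1 to 2 without 1 pool, and at E10.5 3 to 3 without 1 pool. The share of all genes on in other cells was not recounted under these settings. Single pools, and the sets without *Afp*-positive cells with few other markers or without other cells with several, were chosen after seeing the data. The causes of these changes were not tested beyond what each setting counts. The number of cells limits the absent genes: in 63 cells, 0 cells on allows a share of up to 4.76%.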
